A study of Mus musculus with 4 samples.

Results

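Glycolytic and oxygen-sensitive genes were followed as a group of 34 genes of the 31053 features counted: 18 for glucose uptake, the steps of glycolysis and lactate export, and 16 that are known to respond to low oxygen or to take part in sensing it. They were picked by symbol, and all 34 symbols were found. Immune cells were sorted from mammary tumours of FVB/NJ mice 12 weeks old, of genotype PyMT or Jagged1/PyMT, and single-cell RNA was counted with 10x Genomics 3' chemistry. PyMT tumours are driven by the polyoma middle T antigen, which both groups carry. Jagged1 is a Notch ligand, and the promoter and cells that drive it are not given in the labels. The labels list 2 samples per genotype, but each genotype has 1 pooled count matrix with no map from cells to samples, so each genotype was 1 library and no test between genotypes was possible. All intervals below are exact 95% intervals that cover counting error only, not differences between mice.

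Glycolysis splits glucose into pyruvate in the cytosol and yields ATP without oxygen, and lactate dehydrogenase then turns pyruvate into lactate, which leaves the cell through monocarboxylate transporters. When oxygen is low, prolyl hydroxylases no longer mark the alpha subunit of hypoxia-inducible factor for destruction. The factor then binds a short core motif in DNA and raises transcription of many glycolytic enzymes, of mitophagy receptors and of its own hydroxylases. Macrophages and neutrophils in tumours are known for high use of glucose, and arginase, encoded by Arg1, is a known marker of macrophages in poorly oxygenated tumour regions.

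The hypoxia-response core, ACGTG or GCGTG on either strand, was common in the members' promoters. RefSeq promoters (GRCm38.p6, 250 bases before to 50 after each start) were matched for 32 of the 34 genes, Bnip3l and Ndrg1 being the exceptions. A core was found in 40 of their 48 promoters (83.3%), against 43.8% of all 32851 promoters, and a palindrome CACGTG counts as 2 matches. The members' promoters held a median of 24 CG dinucleotides against 7 in all promoters, and any motif with a CG is more frequent in such sequence. Among the 4244 promoters of genes that passed the count filter in macrophage-like cells, whose median was 22 CG dinucleotides, 65.2% held a core. A match is a description of the letters, not a bound site. The 250 bases before the start are printed for Ldha (5 matches), Bnip3 (5) and Ankrd37 (4), and for Tpi1 (0), since these genes recur in the comparisons below and Tpi1 stood high in many of them with no core in its window. Capitals mark the cores on either strand, and each sequence runs 5' to 3' on the gene's strand.
Ldha, chr7:46845554-46845803, + strand: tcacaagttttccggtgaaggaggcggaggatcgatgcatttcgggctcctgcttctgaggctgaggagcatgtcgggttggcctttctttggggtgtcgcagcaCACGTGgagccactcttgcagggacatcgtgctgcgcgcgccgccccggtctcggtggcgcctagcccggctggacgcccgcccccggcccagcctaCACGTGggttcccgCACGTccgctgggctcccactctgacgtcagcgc
Bnip3, chr7:138909507-138909756, - strand: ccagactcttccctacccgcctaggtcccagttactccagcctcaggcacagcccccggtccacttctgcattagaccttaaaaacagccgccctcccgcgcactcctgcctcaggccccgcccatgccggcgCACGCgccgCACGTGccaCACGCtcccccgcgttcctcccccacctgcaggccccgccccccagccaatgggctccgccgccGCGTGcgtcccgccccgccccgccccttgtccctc
Ankrd37, chr8:45999851-46000100, - strand: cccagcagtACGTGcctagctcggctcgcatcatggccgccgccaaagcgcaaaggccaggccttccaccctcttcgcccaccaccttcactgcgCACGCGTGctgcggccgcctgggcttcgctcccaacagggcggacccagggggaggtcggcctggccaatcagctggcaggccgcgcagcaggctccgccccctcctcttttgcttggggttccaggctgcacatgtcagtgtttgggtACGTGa
Tpi1, chr6:124814159-124814408, - strand: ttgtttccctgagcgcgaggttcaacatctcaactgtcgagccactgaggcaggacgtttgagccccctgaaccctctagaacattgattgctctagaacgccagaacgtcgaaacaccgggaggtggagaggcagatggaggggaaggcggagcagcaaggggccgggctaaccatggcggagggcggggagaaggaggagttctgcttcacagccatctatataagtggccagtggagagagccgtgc
Ldha held 7 matches when the 50 bases after the start were added. The only genes with a matched promoter and no core in any window were Tpi1 and Gpi1, which encode the isomerases of triose and glucose phosphates.

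Cells were the barcodes with 500 UMIs or more, 250 genes or more and no more than 10% of UMIs from mitochondrial genes. There were 7444 in PyMT (median 3841 UMIs) and 7875 in Jagged1/PyMT (median 4200 UMIs). The whole libraries held 36012036 and 55506773 UMIs. Cells were assigned to classes by marker genes, none of them a member, and are called "-like". T cell-like barcodes numbered 4962 and 2699 (PyMT first throughout), B cell-like 1393 and 1288, macrophage-like 165 and 1634, and neutrophil-like 81 and 213. Barcodes with markers of more than 1 lineage were set aside, 456 (6.13%) in PyMT and 1584 (20.1%) in Jagged1/PyMT. The libraries shared 70 cell barcodes, against 79.5 for random draws from the list. Macrophage-like cells held their own markers at 34059 and 29346 CPM (a gene's UMIs relative to all UMIs of the class), with T cell markers at 17.5 and 5.78 CPM and B cell markers at 14.4 and 7.57 CPM. The cells were gated on nearly all of these markers, so the values describe the gate and are no separate check of purity. Their median depth differed, 3575 UMIs in PyMT and 7707 in Jagged1/PyMT. A ratio was read only where equal levels would give at least 25 UMIs in the smaller group, and a member was counted as higher or lower at 1.5-fold or more. The equal level was the rate of both groups together, so the larger group set most of it. A gene higher in the larger group thus passed more easily than a gene lower there.

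Macrophage-like cells of the Jagged1/PyMT library held more RNA of the later glycolytic enzymes than those of the PyMT library, and more of a few oxygen-sensitive genes. The 18 glycolytic members summed to 4838 CPM in PyMT against 7579 CPM with Jagged1, a ratio of 1.57 (1.52 to 1.61). The 16 oxygen-sensitive genes summed to 1175 and 1782 CPM, a ratio of 1.52 (1.43 to 1.61). Of the 15 glycolytic members that passed the filter, 10 were at least 1.5-fold higher and 0 lower, while 5.67% of all 4163 genes were that much higher and 5.43% lower. Of the 9 oxygen-sensitive genes that passed, 4 were higher and 0 lower. The filter limits these counts, since the class held 971116 UMIs in PyMT and 14522004 in Jagged1/PyMT. Ndrg1, with a higher CPM in PyMT, did not pass, so it could not count as lower. With at least 10 expected UMIs, 17 glycolytic members were read and 10 were higher, and 13 oxygen-sensitive genes were read and 5 were higher. Of the 6829 genes then read, 9.53% were higher and 7.86% lower. Ndrg1 was among those read and was at least 1.5-fold lower, so the 0 lower holds only for the stricter filter. The median log2 ratio was 0.63 for the glycolytic and 0.47 for the oxygen-sensitive members, against 0.05 for all genes.

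**Figure D1:**
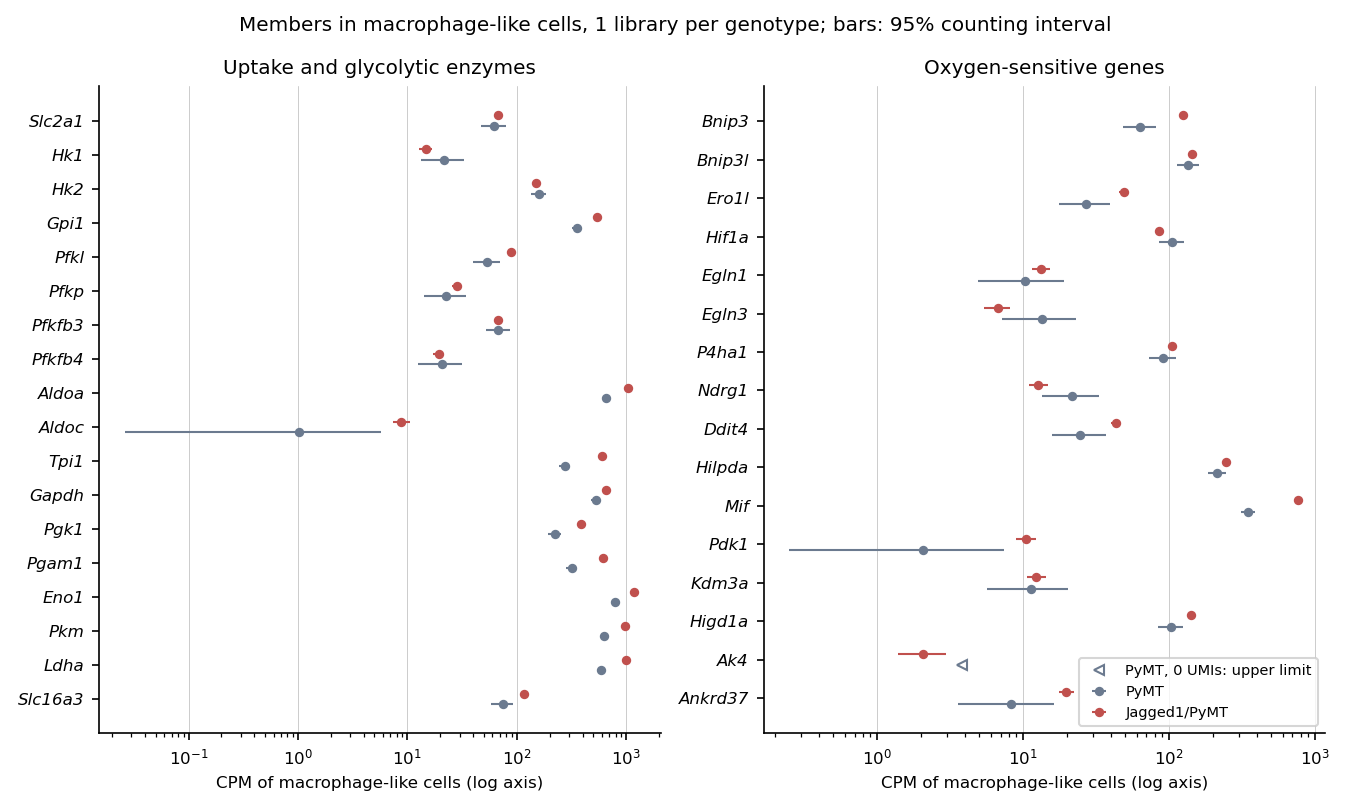
Level of each member in macrophage-like cells, in CPM on a log axis, with 165 PyMT and 1634 Jagged1/PyMT barcodes summed; bars are exact Poisson 95% intervals. The points of Tpi1, Pgam1 and Mif lie well apart between the libraries, while those of Slc2a1, Hk2 and Pfkfb3 overlap.

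The transporter, the inducible hexokinase and the regulator of phosphofructokinase differed by less than counting error. Slc2a1, the glucose transporter of most cells, stood at 61.8 and 68.0 CPM, which is a log2 ratio of 0.14 (-0.24 to 0.54). Hk2, the hexokinase that traps glucose in the cell, stood at 159 and 150 CPM (-0.08, -0.31 to 0.17). Pfkfb3, which makes the activator of phosphofructokinase, was at 68.0 and 67.0 CPM (-0.02, -0.38 to 0.36). For these 3 genes the intervals held no difference. Gpi1, the next enzyme after hexokinase, was higher in Jagged1/PyMT at 356 and 544 CPM (0.61, 0.46 to 0.77). Pfkl, a subunit of the committed step, was at 53.5 and 88.8 CPM (0.73, 0.33 to 1.16), and Pfkp, another subunit, at 22.7 and 28.4 CPM with an interval that held 0 (0.32, -0.29 to 1.01).

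From aldolase to lactate export each enzyme with enough UMIs was higher in Jagged1/PyMT. Aldoa, which splits the hexose bisphosphate, was at 652 and 1041 CPM (0.67, 0.56 to 0.79). The features hold a second identifier with the symbol Aldoa, which was kept apart and is not part of this level. Tpi1, which interconverts the resulting triose phosphates, was at 274 CPM (242 to 309) and 601 CPM (588 to 613), a 2.19-fold difference the widest among the passing enzymes. It ranked 29 of the 4163 genes by ratio. Pgk1, the first step that yields ATP, was at 223 and 386 CPM (0.79, 0.59 to 0.99), and Pgam1, the mutase after it, at 317 and 619 CPM (0.97, 0.80 to 1.13). Ldha, which makes lactate, stood at 588 and 991 CPM (0.75, 0.63 to 0.88), and Slc16a3, the lactate exporter, at 74.1 and 117 CPM (0.66, 0.32 to 1.02). Eno1, which makes phosphoenolpyruvate, and Pkm, the pyruvate kinase after it, had log2 ratios of 0.60 (0.50 to 0.71) and 0.63 (0.51 to 0.75). Gapdh, the dehydrogenase of the pathway, was under the 1.5-fold limit at 526 and 662 CPM (0.33, 0.20 to 0.46). The levels of Eno1 and Gapdh are uncertain, because Eno1b and the Gapdh copies Gm3839 and Gm10358 share 3' ends with at least 95% identity and could take part of their reads. Hk1, Pfkfb4 and Aldoc did not pass the filter, with 21, 20 and 1 UMIs in PyMT.

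Among the oxygen-sensitive genes, Mif, Bnip3, Ero1l and Ddit4 were past the limit. Mif, a cytokine that acts on macrophages themselves, was at 347 CPM (311 to 386) and 768 CPM (754 to 783), 2.21-fold, and ranked 28 of 4163. Bnip3, a receptor that marks mitochondria for removal, stood at 62.8 and 124 CPM (log2 0.98, 0.61 to 1.37). Its PyMT level rested on few cells, since 19 of 165 barcodes held a UMI and 1 barcode held 37.7% of them. Ero1l, the oxidase that forms disulphide bonds in the endoplasmic reticulum, was at 26.8 and 48.9 CPM (0.87, 0.31 to 1.49), and Ddit4, an inhibitor of mTOR signalling, at 24.7 and 43.5 CPM (0.81, 0.23 to 1.47).

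Other oxygen-sensitive genes differed by less than 1.5-fold. Hilpda, a lipid droplet protein that slows lipolysis, was at 214 and 244 CPM (0.19, -0.01 to 0.40), and Bnip3l, the paralogue of Bnip3, at 135 and 145 CPM (0.10, -0.15 to 0.37). P4ha1, a collagen prolyl hydroxylase subunit, was at 90.6 and 104 CPM (0.20, -0.11 to 0.53), and Higd1a, a mitochondrial membrane protein, at 103 and 142 CPM (0.47, 0.18 to 0.77). Hif1a, the oxygen-regulated subunit itself, was at 104 and 85.5 CPM (-0.28, -0.58 to 0.02). Its protein is regulated by breakdown, which RNA counts do not measure. The hydroxylases Egln1 and Egln3, with 10 and 13 UMIs in PyMT, did not pass the filter. Neither did Ndrg1, a stress-response protein, Kdm3a, a histone demethylase, Pdk1, which holds pyruvate back from the mitochondrion, Ak4, a mitochondrial adenylate kinase, or Ankrd37, an ankyrin repeat protein. Ndrg1 had 21 and 185 UMIs, Kdm3a 11 and 179, Pdk1 2 and 153, Ankrd37 8 and 287, and Ak4 0 and 30.

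Single barcodes, a second lineage and depth moved these values. In PyMT 1 barcode, a cycling cell that also held Arg1 UMIs, had 11.2% of the glycolytic and 11.8% of the oxygen-sensitive UMIs of the class. Without the barcode with most member UMIs in each library, the sums were 4434 and 7464 CPM (1.68-fold) for the glycolytic and 1070 and 1756 CPM (1.64-fold) for the oxygen-sensitive members, Tpi1 had a log2 ratio of 1.41, Mif 1.41 and Bnip3 1.55. In another setting, barcodes with any UMI of a second lineage, here T cell, B cell, neutrophil or epithelial markers, were left out. In the rest, 6 of 15 glycolytic and 2 of 9 oxygen-sensitive members were at least 1.5-fold higher, beside 6.85% of the same 4163 genes. Of the 10 and 4 counted before, 5 (Pfkl, Tpi1, Pgk1, Pgam1 and Slc16a3) and 2 (Ddit4 and Mif) were among them, and Slc2a1 was added. Tpi1 then had a log2 ratio of 0.81, Mif 0.88 and Bnip3 0.46.

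The difference was not of 1 size over the depth range. Among barcodes of 500 to under 2000 UMIs (56 PyMT and 198 Jagged1/PyMT) the glycolytic sum was 1.52-fold higher in Jagged1/PyMT (1.35 to 1.72), and among those of 2000 to under 4000 UMIs (31 and 300) 1.78-fold (1.61 to 1.97). From 4000 to under 8000 UMIs (27 and 337) it was 1.17-fold (1.09 to 1.25), and at 8000 UMIs or more (51 and 799) 1.62-fold (1.56 to 1.68). The oxygen-sensitive sum had ratios of 2.0 (1.47 to 2.76), 2.31 (1.80 to 3.0), 0.937 (0.821 to 1.07) and 1.54 (1.43 to 1.66) in the same order. So the range from 4000 to under 8000 UMIs was the exception for both lists, and for the oxygen-sensitive genes its interval held no difference. Glycolytic members at least 1.5-fold higher numbered 3 of 8 passing, 7 of 9, 2 of 9 and 9 of 14, while 7.92%, 7.76%, 11.9% and 8.13% of all genes passing in the same ranges were that much higher. None of those members was lower, 0 in each range, where 1.91%, 4.08%, 10.9% and 7.5% of all genes were.

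**Figure D2:**
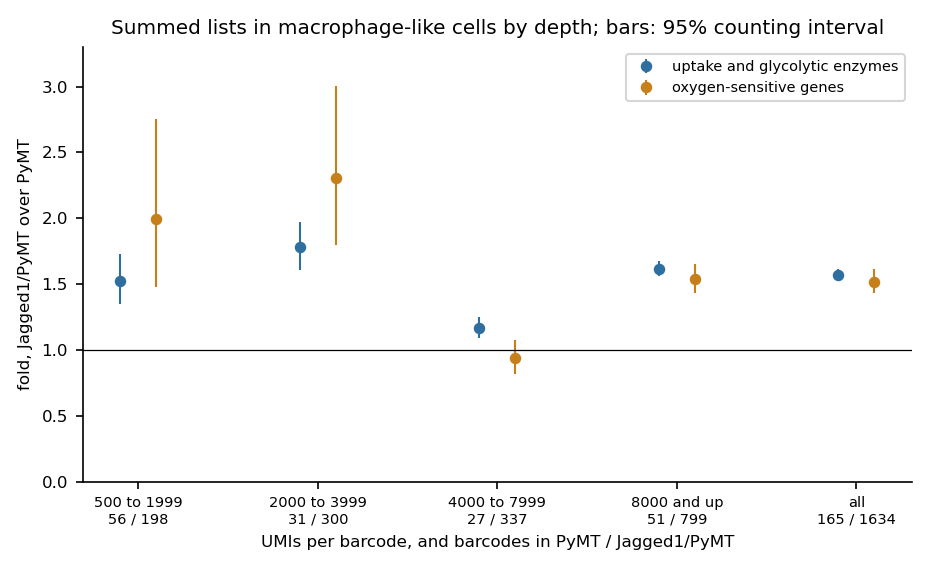
Ratio of the summed level of each list, Jagged1/PyMT over PyMT, in macrophage-like barcodes of 4 depth ranges and of all depths, with exact 95% intervals. The glycolytic sum is above 1 in each range and lowest at 4000 to under 8000 UMIs (1.17), where the interval of the oxygen-sensitive sum holds 1.

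With every macrophage-like barcode thinned to 1000 UMIs (142 PyMT and 1584 Jagged1/PyMT barcodes, 23 and 50 shallower ones left out), Tpi1 was found in 19.7% of PyMT (exact Clopper-Pearson interval 13.5% to 27.2%) and 32.4% of Jagged1/PyMT barcodes (30.1% to 34.8%), and in 48.5% and 74.8% before thinning. Mif was found in 19.7% and 41.9% (51.5% and 80.2% before), and Bnip3 in 3.52% (1.15% to 8.03%) and 8.65% (7.31% to 10.1%), where the intervals overlap. Not every member followed its CPM. Pkm, higher in CPM, was found in 53.5% (45.0% to 61.9%) of PyMT and 50.1% (47.6% to 52.6%) of Jagged1/PyMT barcodes, and Ldha in 45.8% (37.4% to 54.3%) and 51.6% (49.1% to 54.1%), again with overlap. Bnip3l was found in 16.9% and 12.4%, P4ha1 in 9.86% and 7.95% and Hilpda in 11.3% and 10.6%. Thinned T cell-like barcodes, where Tpi1 was low, gave 1.66% and 4.44% for Tpi1 and 0.508% and 0.904% for Bnip3. Both genes also differed in barcodes under 100 UMIs, which hold free RNA, with Tpi1 at 107 and 352 CPM and Bnip3 at 21.2 and 84.7 CPM. Free RNA was estimated at 1.44% and 0.866% of macrophage-like UMIs, and at 3.91% and 3.68% of T cell-like UMIs.

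The surrounding pathways were read from lists of other genes. Of 21 passing genes of pyruvate entry and the citric acid cycle, 3 were 1.5-fold higher and 0 lower. Of all 4163 genes 5.67% were that much higher and 5.43% lower. The list summed to 1551 and 1692 CPM. Those 3 were Idh3a (33.0 and 58.0 CPM) and the succinate ligase subunits Suclg1 (20.6 and 38.4 CPM) and Suclg2 (15.4 and 27.2 CPM). Suclg1 rested on 20 PyMT UMIs (log2 interval 0.26 to 1.62) and Suclg2 on 15 (0.08 to 1.67). The 5 passing pentose phosphate genes held 0 past the limit in either direction (982 and 1111 CPM summed). Of 11 passing hypoxia genes outside the members, Hmox1, which breaks down haem (209 and 370 CPM), and Fam162a (76.2 and 129 CPM) were higher and Wsb1 (109 and 67.8 CPM) lower. Of 2 passing glycolysis genes outside the members, Pgm2, a phosphoglucomutase, was higher at 9.27 and 32.0 CPM on 9 PyMT UMIs, and the transporter Slc2a6 was lower at 52.5 and 32.8 CPM. Immediate early and heat shock genes that tissue digestion is known to induce, 16 in all, summed to 11817 and 15876 CPM, with 4 of 15 passing genes higher and 0 lower. Their part in the result was not tested.

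The genotypes were also compared within each macrophage state. Macrophage-like cells that were neither cycling, nor Arg1-positive, nor resident-like (148 and 1318 barcodes, median 3271.5 and 6853.5 UMIs) had glycolytic sums of 4479 and 7171 CPM, 1.60-fold (1.55 to 1.66), and oxygen-sensitive sums of 1083 and 1691 CPM, 1.56-fold. In them 9 of 14 glycolytic and 5 of 9 oxygen-sensitive members were higher and 0 lower, with 5.57% of 3504 genes higher and 6.16% lower. Tpi1 was at 231 and 555 CPM (log2 1.27, 1.05 to 1.49), and Bnip3 at 42.1 and 120 CPM (1.51, 1.01 to 2.05). Hif1a was lower in Jagged1/PyMT here, at 113 and 85.2 CPM (-0.41, -0.73 to -0.08). The digestion-induced genes summed to 10954 and 16663 CPM in these cells. The middle cell differed less than the sum, since the median of the cells' own glycolytic CPM was 4140 and 4947. In cycling cells (9 and 227) the glycolytic sum was 7644 (7109 to 8209) and 7723 CPM (7627 to 7820). The oxygen-sensitive sum was 1840 (1583 to 2128) and 1702 CPM (1657 to 1748). Neither sum was higher beyond counting error in Jagged1/PyMT, but a single barcode held 69.8% and 74.2% of those PyMT UMIs. The PyMT sums thus mostly describe 1 cell and cannot show whether this state differed between genotypes. The medians of the cells' own glycolytic CPM were 3634 and 5875. Resident-like cells (7 and 61) had 4271 and 6908 glycolytic CPM and 737 and 1753 oxygen-sensitive CPM.

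Within the Jagged1/PyMT library, macrophage-like cells with an Arg1 UMI held the highest levels. There were 28 such non-cycling cells, median 11716 UMIs, against 1379 with no Arg1 UMI. Of the latter, the 1318 that were not resident-like had a median of 6853.5 UMIs, so depth was not equal. PyMT had 1 non-cycling cell with an Arg1 UMI, at 7701 glycolytic and 3564 oxygen-sensitive CPM. The glycolytic sum was 7154 CPM in the cells with no Arg1 UMI and 20962 CPM in the Arg1-positive cells, 2.93-fold (2.86 to 3.0), and the oxygen-sensitive sum 1695 and 5631 CPM, 3.32-fold (3.16 to 3.49). Of the glycolytic members that passed, 10 of 12 were at least 1.5-fold higher, and of the oxygen-sensitive ones 7 of 7, with 0 lower in either list. Among all 1621 genes that passed, 12.3% were that much higher and 12.6% lower.

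Hilpda differed most of the passing members, 234 CPM without Arg1 and 1321 with it (log2 2.50, 2.34 to 2.65). Bnip3 followed at 119 and 588 CPM (2.31, 2.08 to 2.53), then Slc16a3 at 106 and 499 CPM and Pgk1 at 351 and 1425 CPM. Hilpda was thus far apart between these states though close between the genotypes. Tpi1 was at 553 and 1905 CPM (1.78), Ldha at 927 and 2468 CPM (1.41) and Mif at 707 and 1880 CPM (1.41). Hif1a was higher as well, at 87.7 and 231 CPM (1.40, 1.03 to 1.74). Gpi1 (537 and 733 CPM, 0.45) and Hk2 (159 and 186 CPM, 0.23, -0.17 to 0.60) were the 2 passing enzymes below the limit. Ankrd37, whose promoter is printed above, did not pass the filter but stood at 15.1 and 180 CPM on 57 UMIs in the Arg1-positive cells.

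The values varied widely among the 28 cells. Their own glycolytic CPM ran from 1363 to 88662 with a median of 14344, against a median of 4926 in the others, and 24 of 28 lay above that median. Their oxygen-sensitive CPM ran from 0 to 20166 with a median of 3532 against 1021, again with 24 of 28 above. The 90th percentile of the others was 14762 and 3489 CPM, and 13 and 14 of the 28 lay above it. So the distributions overlapped. A single barcode held 27.6% of the glycolytic and 23.3% of the oxygen-sensitive UMIs of the group. Without the top barcode of each group the sums were 7048 and 16241 CPM (2.30-fold), and 1665 and 4617 CPM (2.77-fold), and 10 of 12 and 7 of 7 members were at least 1.5-fold higher, the same genes as before, beside 11.8% of the 1621 genes.

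**Figure D3:**
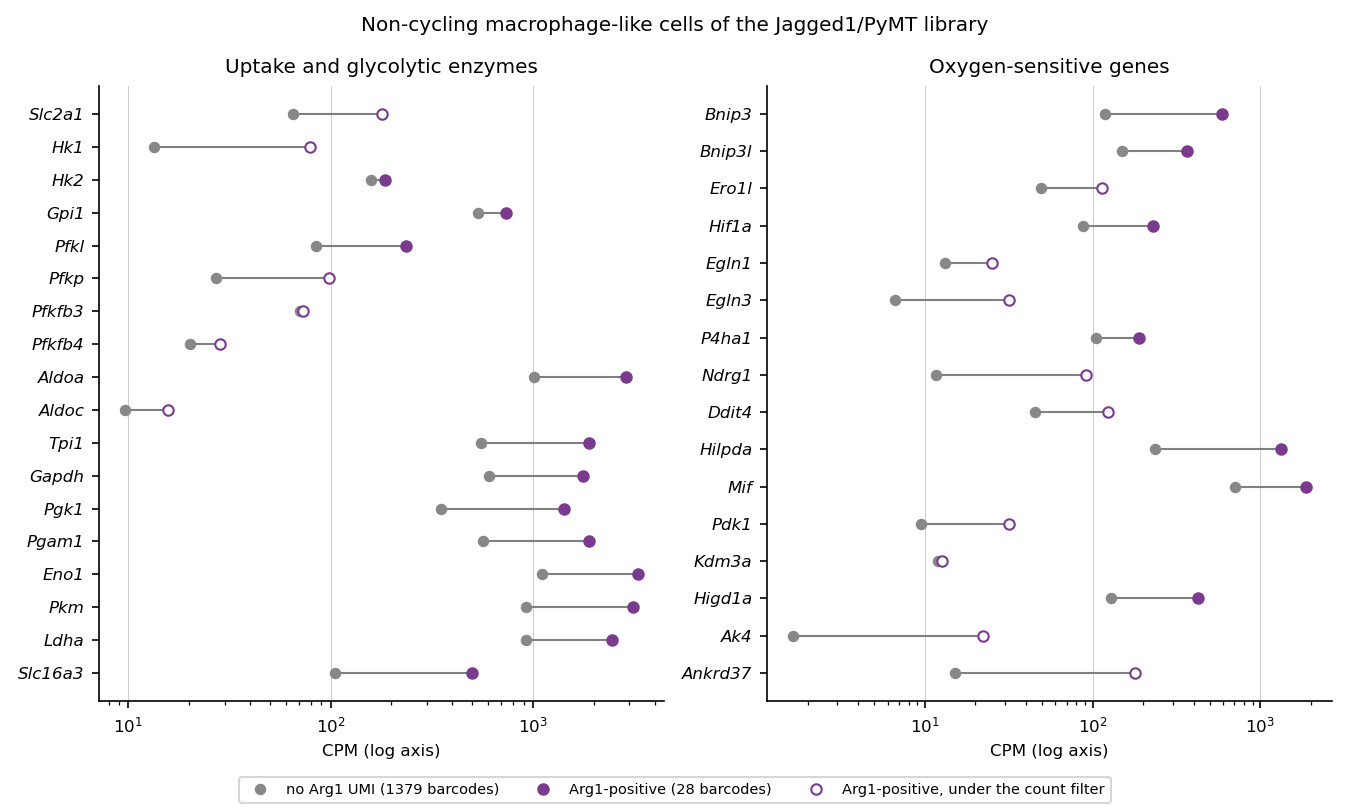
Glycolytic and oxygen-sensitive members in Jagged1/PyMT macrophage-like cells, Arg1-positive (28) against no Arg1 UMI (1379), non-cycling. Points are CPM of the summed cells on a log axis, joined by a line for each member. Open points mark members under the filter. Among the passing members the points of Hilpda (log2 ratio 2.50) and Bnip3 (2.31) lie farthest apart, while those of Hk2 (0.23) lie close.

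Cells with more Arg1 UMIs had higher middle values. The cells' median glycolytic CPM was 9794 with 1 Arg1 UMI (14 barcodes), 12949 with 2 to 4 (8) and 17176 with 5 or more (13), cycling cells included, and the oxygen-sensitive medians were 2012, 2864 and 5611. The summed levels had no such order, at 24775, 17102 and 19450 CPM, and 1 barcode held 58.7% of the glycolytic UMIs in the set with 1 Arg1 UMI. Depth was not equal, since these 14, 8 and 13 barcodes held 125693, 94492 and 232808 UMIs of all genes. A deeper barcode can hold more Arg1 UMIs at the same level, and the part of depth in this order was not tested. The Arg1-positive cells carried macrophage markers at 20096 CPM, below the 31718 CPM of the other state, and monocyte markers at 758 CPM against 273, while NK cell and mast cell markers were at 0. Digestion-induced genes ran the other way from the genotype comparison, with 1 of 15 higher and 7 lower. Citric acid cycle genes stood at 1619 and 1615 CPM.

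The PyMT library could be compared only when barcodes with a second lineage were kept. Then 13 barcodes with an Arg1 UMI stood against 358 with none. The 13 held 236021 UMIs of all genes and the 358 held 2754831, so the 13 were deeper on average. The glycolytic sum was 4176 CPM without and 8156 CPM with Arg1 (1.95-fold). The oxygen-sensitive sum was 1125 and 2568 CPM (2.28-fold). Of the passing members, 8 of 10 and 2 of 4 were higher and 0 lower, with 10.2% of 1200 genes higher and 14.8% lower. The members higher there included Hilpda at 138 and 580 CPM and Tpi1 at 188 and 525 CPM. The same gate in Jagged1/PyMT (113 against 2449) gave 6824 and 12350 CPM (1.81-fold) and 1748 and 3575 CPM (2.04-fold), with 13 of 17 and 10 of 13 members higher and 5.96% of 6124 genes higher and 5.7% lower. Digestion-induced genes were higher with Arg1 in PyMT, 8 of 15, at 10376 and 16249 CPM, unlike in Jagged1/PyMT.

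Cycling and resident-like states did not differ from the rest in this way. In 227 cycling against 1318 other Jagged1/PyMT cells, 0 of 18 glycolytic and 0 of 14 oxygen-sensitive members were 1.5-fold higher, with 11.3% of 7517 genes higher and 5.69% lower. Aldoc (9.91 and 5.35 CPM) and Ddit4 (46.9 and 28.3 CPM) were lower. The glycolytic sum was 7171 in the other cells and 7723 CPM in cycling ones (1.08-fold). The 61 resident-like cells, gated on genes such as Folr2 and Lyve1, had 6908 CPM (0.963-fold), with 0 of 14 and 0 of 9 members higher and only Ddit4 lower (5.73% of 3350 genes higher, 3.25% lower). Hif1a was at 85.2 in the other and 122 CPM in the resident-like cells (log2 0.52).

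Across the 799 Jagged1/PyMT macrophage-like barcodes with at least 8000 UMIs, the sums of both lists varied together (Spearman 0.81, Pearson 0.88, over cells of 1 library that share depth and total, so this is a description). Without Arg1-positive cells (775 barcodes) these were 0.79 and 0.87. Against the sum of the other glycolytic members, Tpi1, Mif and Pkm had rank correlations of 0.82, Ldha 0.80 and Bnip3 0.57. Hilpda had 0.33, Hif1a 0.12 and Hk2 0.08, which places the hexokinase and the oxygen-regulated subunit apart from the enzymes of the later steps. Hif1a and Hk2 have fewer UMIs than Tpi1, Mif, Pkm and Ldha. In all macrophage-like cells of that library, though, Hk2 had a higher CPM than Slc16a3, whose rank correlation was 0.63. The part of UMI counts in this order was not tested.

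Neutrophil-like cells had the highest sums of the 10 classes in both libraries, and their members were also higher in Jagged1/PyMT. The glycolytic sum was 8427 and 12210 CPM in 81 and 213 barcodes, 1.45-fold (1.38 to 1.52), and the oxygen-sensitive sum 2297 and 3939 CPM, 1.71-fold (1.57 to 1.88). Of the passing members 7 of 14 and 5 of 9 were at least 1.5-fold higher and 0 lower, with 10.3% of 1174 genes higher and 14.1% lower. Median depths were close, 2514 and 2536 UMIs, and the digestion-induced genes were at 20492 and 18557 CPM. Neutrophil markers themselves summed to 92128 and 149621 CPM, and macrophage markers to 1029 and 1052 CPM. Without the top barcode of each library the sums were 8542 and 12135 CPM, and 2376 and 3868 CPM.

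Tpi1 and Hilpda differed most in neutrophil-like cells. Tpi1 was at 111 and 482 CPM on 27 and 379 UMIs (log2 2.12, 1.55 to 2.74), and Hilpda at 235 and 945 CPM on 57 and 744 UMIs (2.01, 1.62 to 2.43). In barcodes thinned to 1000 UMIs (80 and 203), Tpi1 was found in 6.25% (2.06% to 14.0%) and 31.5% (25.2% to 38.4%), and Hilpda in 10.0% and 39.4%. Both genes were therefore more frequent in Jagged1/PyMT at equal depth. Gpi1 stood at 301 and 764 CPM (1.35), Pgam1 at 375 and 865 CPM (1.21), Ldha at 638 and 1390 CPM (1.12) and Bnip3 at 152 and 333 CPM (1.13). Slc16a3, the lactate exporter, went the other way, at 1754 and 1329 CPM (-0.40, -0.56 to -0.23), and Hif1a was at 395 and 311 CPM (-0.34, -0.69 to 0.01). Slc2a1 was at 366 and 498 CPM (0.44), under the limit.

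**Figure D4:**
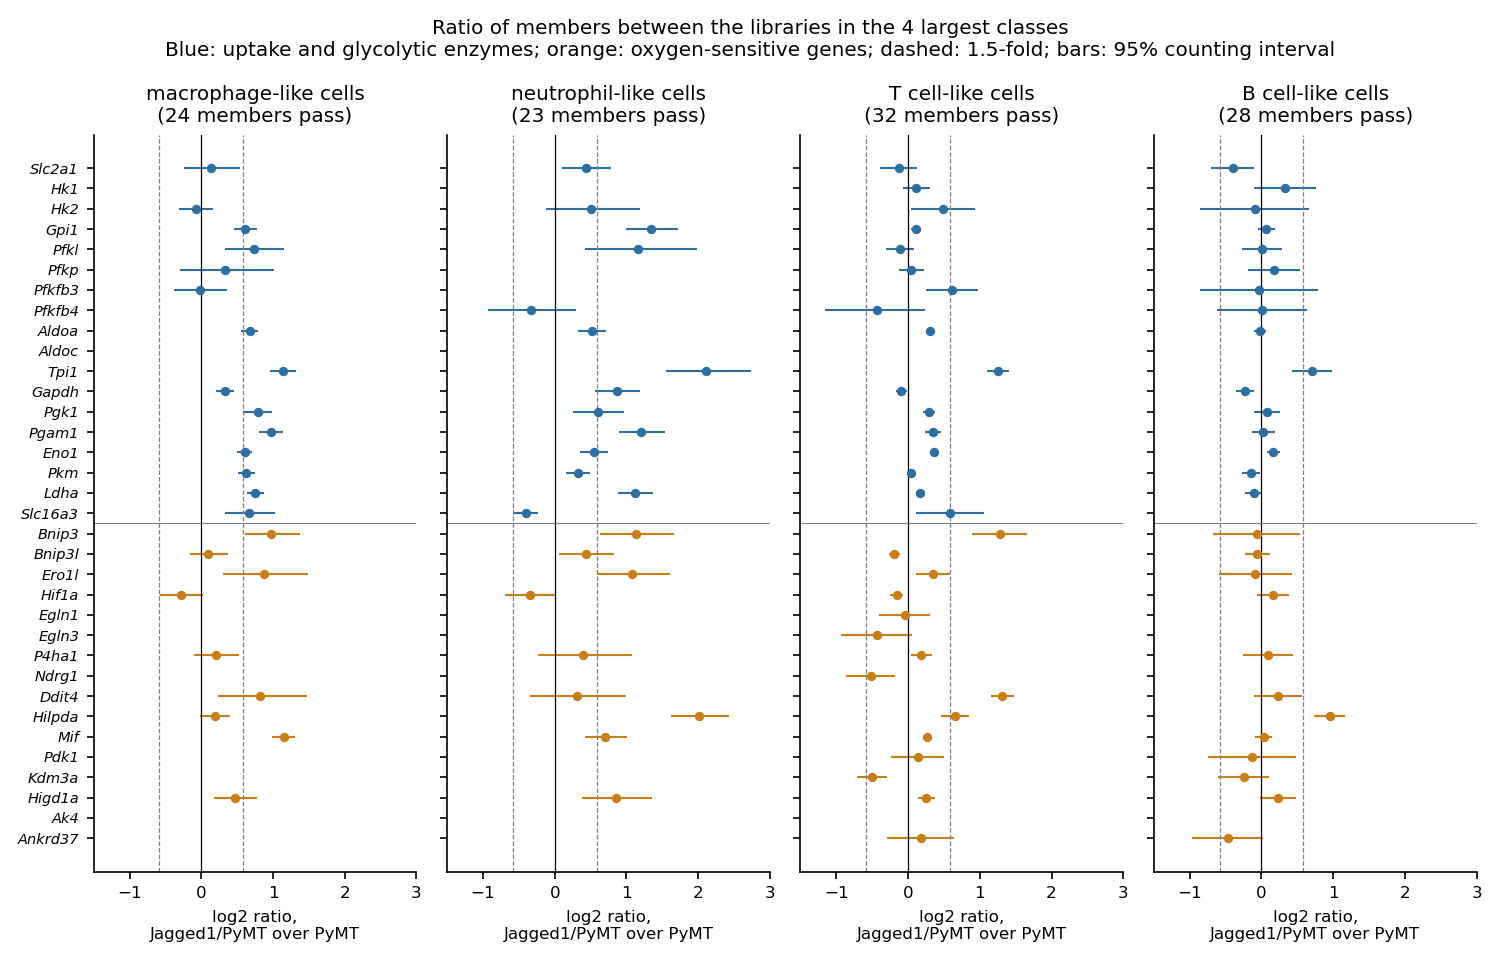
Log2 ratio of each member, Jagged1/PyMT over PyMT, in macrophage-like, neutrophil-like, T cell-like and B cell-like cells, with exact 95% intervals, for members that passed the count filter. Tpi1 is above 0.58, the 1.5-fold limit, in each of the 4 classes, while Slc16a3 is above 0 in macrophage-like and below 0 in neutrophil-like cells.

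Transport genes set neutrophil-like apart from macrophage-like cells in both libraries. Slc16a3 was at 117 CPM in macrophage-like and 1329 in neutrophil-like cells of Jagged1/PyMT (log2 3.5, 3.39 to 3.61), and 74.1 and 1754 CPM in PyMT (4.56). Slc2a1 was at 68.0 and 498 CPM in Jagged1/PyMT (2.87) and 61.8 and 366 CPM in PyMT (2.57). Hif1a was higher in neutrophil-like cells too, by 1.87 on the log2 scale with Jagged1 and 1.93 without. In Jagged1/PyMT 13 of 15 passing glycolytic and 8 of 9 passing oxygen-sensitive members had ratios above 1 in that direction. Tpi1 was lower in neutrophil-like cells, with -0.32 for the Jagged1/PyMT library and -1.30 for PyMT, and Mif had 0.00 in Jagged1/PyMT. In Jagged1/PyMT 5 of 15 glycolytic and 7 of 9 oxygen-sensitive members were 1.5-fold higher in neutrophil-like cells and 0 lower, with 18.1% of 3599 genes higher and 56.9% lower. In PyMT the counts were 4 higher and 2 lower of 12, and 3 higher of 5, with 27.1% of 1330 genes higher and 48.8% lower.

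Macrophage-like exceeded T cell-like cells for nearly all glycolytic members. In Jagged1/PyMT 16 of 18 were at least 1.5-fold higher in macrophage-like cells and 1 lower, with 37.1% of 10158 genes higher and 24.7% lower. Hk2 was at 6.88 CPM in T cell-like and 150 CPM in macrophage-like cells (log2 4.45), and Tpi1 at 66.3 and 601 CPM (3.18). Hk1, the constitutive hexokinase, was the exception at 31.9 and 14.8 CPM (-1.11). Of the oxygen-sensitive members 8 of 15 were higher and 2 lower, and Hif1a was at 147 and 85.5 CPM (-0.78). In PyMT 8 of 12 glycolytic members were higher and 1 lower, with 22.1% of 3796 genes higher and 35.1% lower.

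In T cell-like cells the members as a whole were near their PyMT level. The glycolytic sum was 2453 and 2829 CPM, 1.15-fold (1.14 to 1.17), and the oxygen-sensitive sum 922 and 1011 CPM, 1.10-fold (1.07 to 1.12). Of 17 and 15 passing members 3 and 3 were 1.5-fold higher and 0 lower, with 5.79% of 9376 genes higher and 5.59% lower. Tpi1 was at 27.8 and 66.3 CPM (log2 1.25, 1.09 to 1.41), Ddit4 at 25.8 and 64.0 CPM (1.31, 1.15 to 1.48) and Bnip3 at 4.81 and 11.7 CPM (1.28, 0.89 to 1.66). Hilpda (0.65), Pfkfb3 (0.61) and Slc16a3 (0.59) were just past the limit. Eno1 (0.37), Pgam1 (0.35) and Aldoa (0.30) were higher by less, Gapdh (-0.09), Bnip3l (-0.19) and Hif1a (-0.16) slightly lower, and Kdm3a lower at 32.2 and 22.8 CPM (-0.50, -0.71 to -0.29).

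Macrophage RNA differed in the same T cell-like barcodes, with macrophage markers at 110 and 503 CPM. In barcodes with no UMI of a second lineage, Tpi1 had a log2 ratio of 0.93 and Ddit4 1.24, both still past 1.5-fold. Bnip3 (0.50), Pfkfb3 (0.43), Hilpda (0.32) and Slc16a3 (0.07) were then under the limit. With free RNA subtracted Tpi1 had 1.17.

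B cell-like cells had like glycolytic sums in both libraries, 2368 and 2373 CPM (1.0-fold, 0.976 to 1.03). Their oxygen-sensitive sum was slightly higher in Jagged1/PyMT, 711 and 779 CPM (1.10-fold, 1.04 to 1.15). Of 16 and 12 passing members 1 and 1 were higher, with 4.41% of 7776 genes higher and 6.02% lower. These were Tpi1 at 37.5 and 61.0 CPM (0.70, 0.42 to 0.98) and Hilpda at 59.1 and 114 CPM (0.95, 0.74 to 1.16). Slc2a1 was lower at 49.3 and 37.3 CPM (-0.40). Digestion-induced genes were higher in 7 of 14 cases in B cell-like cells, at 8288 and 11357 CPM.

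Tpi1 was past the limit in each of the 4 large classes. Of the 960 genes that passed the filter in all 4, only Tpi1, Rgs1 and Jun were at least 1.5-fold higher in each, the last pair being named after their values were seen. Of the 21 members among the 960 genes, 10 (47.6%) had ratios above 1 in all 4 classes, as did 147 (15.3%) of the 960. Ordered by level in Jagged1/PyMT, Tpi1 was highest in macrophage-like cells (601 CPM, 588 to 613). Neutrophil-like (482, 434 to 533), monocyte-like (480, 410 to 557) and epithelial-like cells (451, 381 to 530) followed, and these 3 had overlapping intervals. Conventional (200) and mature dendritic-like (197) and NK-like cells (157) were next, again with overlapping intervals. T cell-like (66.3), B cell-like (61.0) and plasmacytoid dendritic-like cells (53.2, 19.5 to 116) were lowest and overlapped too. In PyMT the order was led by epithelial-like (276, 241 to 314) and macrophage-like cells (274, 242 to 309), followed by monocyte-like cells (176, 127 to 238), and neutrophil-like cells (111, 73.2 to 162) stood among the dendritic and NK classes.

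Smaller classes held few barcodes each. Monocyte-like cells (26 and 42 barcodes) had glycolytic sums of 5057 and 7465 CPM, 1.48-fold (1.38 to 1.58), and Tpi1 at 176 and 480 CPM (log2 1.45, 0.95 to 1.97). In them 4 of 10 glycolytic and 1 of 5 oxygen-sensitive members were higher and 0 lower, with 8.44% of 1339 genes higher and 9.11% lower. Epithelial-like cells (84 and 35), which carry tumour cell markers, had Pgk1 at 118 and 332 CPM (1.49) and Ddit4 at 175 and 427 CPM (1.28), but Slc2a1 at 140 and 73.1 CPM (-0.93). There 5 of 12 glycolytic members were higher and 1 lower, and 3 of 4 oxygen-sensitive members were higher, with 7.68% of 1680 genes higher and 16.2% lower. The glycolytic sum was 1.16-fold (1.10 to 1.22) and the oxygen-sensitive sum 1.80-fold (1.63 to 1.98) that of PyMT.

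Mature dendritic-like cells (47 and 54) had oxygen-sensitive sums of 637 and 1525 CPM, 2.39-fold, but 1 Jagged1/PyMT barcode held 59.2% of those UMIs and 34.8% of the glycolytic ones. Without the top barcode of each library the ratios were 1.02 for the oxygen-sensitive and 1.09 for the glycolytic members. With it, 6 of 10 glycolytic and 5 of 6 oxygen-sensitive members were higher and 0 lower (5.3% of 1699 genes higher, 8.83% lower). Conventional dendritic-like cells (14 and 21) had 2 of 9 glycolytic members higher, Tpi1 at 114 and 200 CPM (0.81) and Pgk1 (0.75), with 6.91% of 940 genes higher and 10.4% lower. Plasmacytoid dendritic-like cells (17 and 15) had a lower glycolytic sum in Jagged1/PyMT, 2637 and 1889 CPM (0.717-fold, 0.601 to 0.852), with Ldha at 724 and 373 CPM (-0.96). Of their 3 passing glycolytic members 1 was lower and 0 higher, with 8.33% of 660 genes higher and 13.9% lower. In NK-like cells (34 and 20) 2 glycolytic members passed and 0 were past the limit, with 7.84% of 459 genes higher and 12.2% lower. Their glycolytic sum was nonetheless higher in Jagged1/PyMT, 2613 and 3389 CPM (1.30-fold, 1.10 to 1.53). The oxygen-sensitive sum was 1129 and 1598 CPM (1.41-fold, 1.10 to 1.81), and 1 Jagged1/PyMT barcode held 19.7% of those UMIs.

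**Figure D5:**
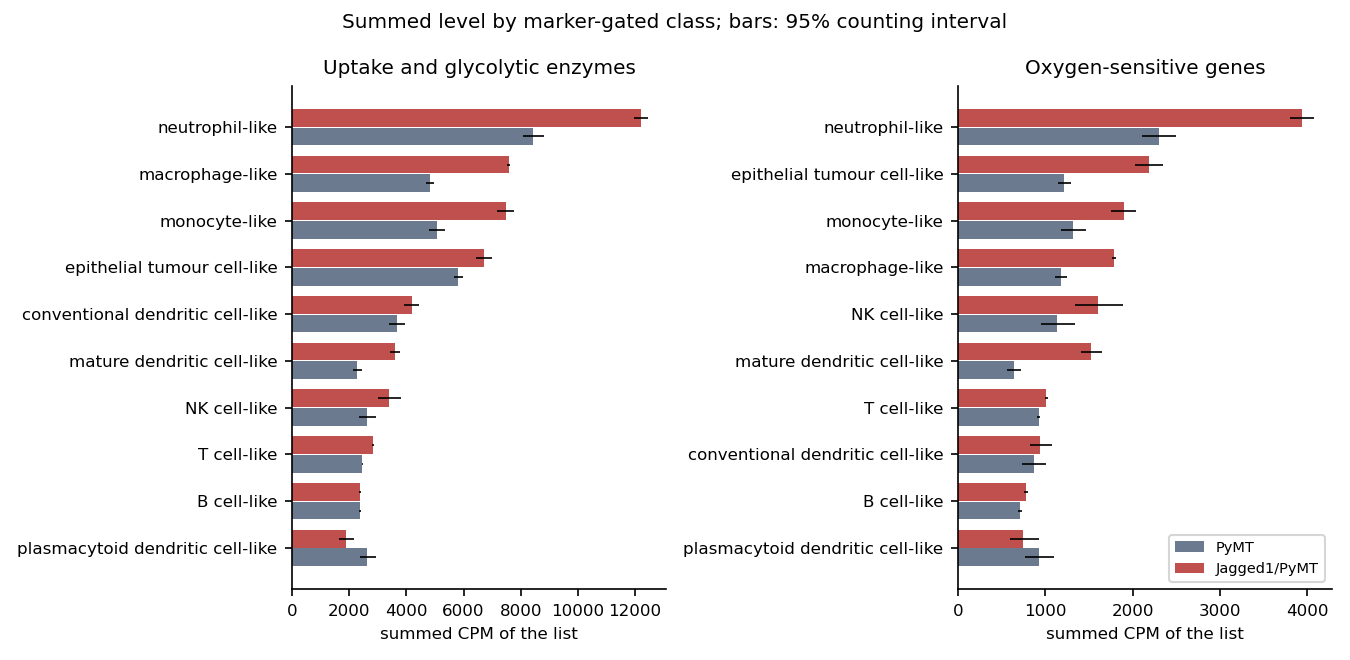
Summed level of the glycolytic and the oxygen-sensitive members in each class and library, in CPM, with exact Poisson 95% intervals. Neutrophil-like cells of Jagged1/PyMT stand highest (12210 and 3939 CPM), while B cell-like cells of both libraries lie together (2368 and 2373 glycolytic CPM).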

How the data were processed

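The deposited values are unnormalised UMI counts of each gene in each barcode, and the authors used Cell Ranger 3.0.2, per the submitters' processing notes. The genome build is not given in the sources used here. The files list 737280 barcodes per genotype and had not been filtered for cells.

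Classes were set by UMIs of marker genes: 10 for macrophages and neutrophils, 3 for T, B and NK cells and 5 for other classes, with barcodes holding a second lineage set aside. States needed 3 UMIs of cycling or resident genes, or 1 of Arg1. Scrublet (scanpy 1.11.5) marked 3 and 0 doublets, so it had not worked, and no barcode was removed for its score except in an alternative. UMIs were summed per library and class as CPM with exact Poisson intervals. Ratios have exact conditional binomial intervals (scipy 1.17.1, numpy 2.4.6, Python 3.11.15). They were tried on simulated Poisson counts, the model they assume, so this could not show how well they cover spread between cells. Near copies were found with blastn 2.17.0 over the last 500 bases. Every member could be named, and up to 10 genes of the surrounding pathway lists with the ratio farthest from 1 among passing genes past 1.5-fold. Members and lists were chosen with earlier results of these data known. Alternatives covered the gate, filters, depth, free RNA and scaling. In the alternative with no UMI of a second lineage, only T cell, B cell, macrophage, neutrophil and epithelial markers counted as a second lineage.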

Additional observations from a re-analysis of the deposited data

Results flagged for a closer look

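Some members had ratios of opposite sign in different classes, each with an interval apart from 0. These differences between classes were not tested. The values are log2 ratios of Jagged1/PyMT over PyMT. Slc16a3, the lactate exporter, had 0.66 in macrophage-like and 0.59 in T cell-like cells but -0.40 in neutrophil-like cells. Gapdh had 0.33 in macrophage-like and 0.87 in neutrophil-like cells, but it was -0.094 for T cell-like cells and -0.23 for B cell-like cells. For Pkm, the pyruvate kinase, the ratio was 0.63 in macrophage-like and 0.33 in neutrophil-like cells, against -0.15 for B cell-like cells. Slc2a1, the glucose transporter, had 0.44 in neutrophil-like and -0.40 in B cell-like cells. Bnip3l, the mitophagy receptor, had 0.43 in neutrophil-like and -0.19 in T cell-like cells.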

How the results depend on the processing

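Of the alternatives to the list medians and counts, 82 of 90 medians and 61 of 64 counts stayed close to the values reported. A count was called close if it changed by up to 1.5-fold, whichever genes it held and whatever the share of all genes. With ratios in macrophage-like cells scaled to the median of all genes, 7 of 15 glycolytic members were higher, beside 4.56% of genes. With cells thinned to 1000 UMIs 10 were higher, 7 of them among the 10 reported, beside 18.4% of genes. Neutrophil-like cells were not among these alternatives. No median past 1.5-fold changed sign, and a change of sign was not labelled for smaller medians. In macrophage-like cells with no UMI of a second lineage, 6 of 15 glycolytic and 2 of 9 oxygen-sensitive members were 1.5-fold higher in place of 10 and 4, with 6.85% of all genes higher in place of 5.67%. In the Arg1 comparison the glycolytic median of 1.56 became 1.69 with the marker requirement raised 2-fold, 1.11 with no UMI of a second lineage, 1.30 as the mean of the cells' own CPM, 1.38 in cells thinned to 1000 UMIs and 1.25 without the deepest 1% of barcodes. Alternatives chosen after seeing the data gave 1.23 without the barcode with most member UMIs, and 0.87 with second-lineage barcodes kept, where the oxygen-sensitive median was 0.72 in place of 1.41. With no filter on counts 15 of 16 oxygen-sensitive members were higher in place of 7 of 7, but 47.7% of 14264 genes were then that much higher in place of 12.3%. The cause of these moves was not tested. For single members 435 values moved by less than 0.5 of their interval's width and 136 by more. Depth limits the PyMT macrophage-like cells, where 165 barcodes left 10 members under the filter. Leaving out a replicate was not possible, since samples are pooled. No paired analysis was possible because the matrices pool the samples of each genotype and carry no replicate number.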
